A study of Mus musculus with 16 samples.

Results

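The genes described here encode major histocompatibility complex (MHC) molecules of mouse and the proteins that supply them with peptide. The rule took every row whose symbol starts with H2-, the mouse name of the MHC locus, and 15 named partners (B2m, Tap1, Tap2, Tapbp, Psmb8, Psmb9, Psmb10, Psme1, Psme2, Cd74, Ciita, Calr, Canx, Pdia3 and Ctss), which gave 50 of the 18132 genes measured. The H2- prefix brought in 35 of them. By role, 37 belonged to class I (25 heavy chain rows, the light chain and 11 genes of peptide supply and loading), 12 to class II (4 chains and 8 genes of loading and control) and 1, H2-Ke6, to neither. RefSeq marks the heavy chain rows H2-Bl, H2-D4, H2-Q5 and H2-T10 and the class II chain H2-Ea as transcribed pseudogenes. It lists H2-Tw3 as a synonym of H2-T3, so these rows may read the same gene. A row under the symbol H2-D1 was not analysed here, so H2-K1 was the only classical class I heavy chain among the members.

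Kidneys came from wildtype (WT) mice and from mice lacking IL-33 (KO), a nuclear cytokine, backcrossed to the same C57BL/6J BomTac background. Per the study's methods, mice were 8 weeks old unless stated otherwise. In unilateral ureteral obstruction (UUO), a metal clip closed the left ureter, and tissue was taken 24 h later. The kidneys fell into 2 WT control, 2 KO control, 7 WT UUO and 5 KO UUO kidneys, each hybridised to its own Illumina bead array. The labels split the UUO mice into set 1 (3 WT and 2 KO) and set 2 (4 WT and 3 KO). They give no set for the controls, which the design text calls untreated. No label names a sham operation, so changes after UUO cannot be told apart from those of the surgery, its anaesthesia and buprenorphine. The KO lacks the gene in every cell, and whole kidney RNA mixes all cell types, so fewer cells of a type and less RNA per cell cannot be told apart.

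Class I molecules sit on nearly all nucleated cells and display peptides cut from proteins made inside the cell. The immunoproteasome (Psmb8, Psmb9, Psmb10) and its PA28 activator (Psme1, Psme2) cut the peptides, the TAP transporter (Tap1, Tap2) moves them into the endoplasmic reticulum, and tapasin (Tapbp), calreticulin (Calr), calnexin (Canx) and Pdia3 help load them onto a heavy chain paired with β2-microglobulin (B2m). Class II molecules are αβ pairs found mainly on dendritic cells, macrophages and B cells, and display peptides from proteins taken up from outside. The invariant chain (Cd74) guards the groove until proteases such as cathepsin S (Ctss) trim it, H2-DM exchanges the remaining fragment for peptide, H2-O restrains H2-DM, and Ciita is the master coactivator of class II transcription. Interferon-γ induces most genes of both pathways.

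Class II genes are known for a shared promoter layout, an X box followed by a Y box, on which Ciita is recruited. Sequences before the start were shown because the rule did not use them, and they come from RefSeq on GRCm38.p6. A promoter entry was matched for 37 of the 50 members, 8 of them of class II. The windows shown are those of the 4 class II members in which the search below found this layout, and of H2-DMb1. H2-DMa, H2-DMb2 and Ctss, in which it was not found, are not shown. Capitals mark the letters GCAAC, taken as the core of the X box, and ATTGG, the Y box, on the strand of the gene. The 90 bases run from position -110 to -21 before the start.
H2-Aa, the α chain of I-A, chr17:34287844-34287933, minus strand: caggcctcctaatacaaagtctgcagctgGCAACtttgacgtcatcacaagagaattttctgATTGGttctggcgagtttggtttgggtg
H2-Eb1, the β chain of I-E, chr17:34305757-34305846, plus strand: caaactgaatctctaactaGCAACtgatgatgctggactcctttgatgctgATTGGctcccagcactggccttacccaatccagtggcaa
H2-Oa, a chain of H2-O, chr17:34092269-34092358, plus strand: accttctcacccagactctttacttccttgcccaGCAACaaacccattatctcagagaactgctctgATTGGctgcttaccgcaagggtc
H2-Ob, its partner, chr17:34238795-34238884, plus strand: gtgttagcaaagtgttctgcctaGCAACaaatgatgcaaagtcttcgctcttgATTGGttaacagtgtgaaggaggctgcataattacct
H2-DMb1, a β chain of H2-DM, chr17:34153081-34153170, plus strand: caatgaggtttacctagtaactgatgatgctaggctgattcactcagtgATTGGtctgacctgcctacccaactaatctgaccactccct
In the first 4 sequences the Y box began 33, 32, 33 and 30 bases after the X core. The H2-DMb1 window held the Y box and not GCAAC.

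Searched over the 250 bases before each start, the X core followed by the Y box at 20 to 45 bases on the gene's strand was found in 4 of the 8 class II members, in 0 of 28 class I members and in 0.548% of all 32851 promoters. The X core was added to the search after these sequences had been seen, so the count describes them and supports nothing. The Y box letters on either strand were common, in 33.8% of all promoters and in 30 of the 37 members. The interferon-γ activated site, TTCNNNGAA on either strand, stood in 7.02% of all promoters and in 4 of 37 members. An interferon-stimulated response element, searched as a pair of GAAA blocks, stood in 2.98% of all promoters and in 3 of 37 members, B2m, Ctss and H2-T23. The shares of all promoters count promoter entries, whereas those of members count genes with a match in any of their entries, so they are unlike measures. A match is a string of letters and does not show a bound factor.

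Levels below are log2 of the quantile-normalized intensity, with 1 value per gene and kidney, and a difference of 1 is 2-fold. They compare kidneys for the same gene and not genes with each other. The labels could be checked on Il33, which read 6.80 to 7.02 in the 7 KO kidneys and 7.62 to 9.57 in the 9 WT kidneys. That KO range shows what a gene without product reads here. Of the members, 14 never read above 7.02, among them Canx, H2-Ea, H2-Ob and 11 class I heavy chains, and their values give no level. Below, the brighter members are the 26 whose mean over all kidneys was above that of the median gene. The markers of tubular injury Havcr1 and Lcn2 rose in UUO by 5.78 and 5.61 in WT and by 6.52 and 5.91 in KO. In the WT kidney 3820 of set 1, Havcr1 read 10.42, against 12.84 to 13.95 in the other WT UUO kidneys, and Slc12a1, a thick limb transporter that falls in UUO, read 10.97, the highest of the UUO kidneys. Where this kidney sets a result, the value without it is given too.

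The class II chains were lower after 24 h of UUO. In WT kidneys, H2-Eb1, H2-Ab1, H2-Aa and the invariant chain Cd74 all fell, by 1.10, 0.63, 0.63 and 0.69 on the log2 scale, and in KO kidneys H2-Eb1 fell by 0.77 while the other 3 had values of -0.37, -0.33 and -0.36 that did not pass the test. The fourth chain, H2-Ea, encodes the α chain of I-E, which mice of the b haplotype such as C57BL/6 do not make, and read 6.78 to 6.91 in all kidneys.

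H2-Eb1, the I-E β chain, read 10.33 and 10.53 in the WT controls and from 8.90 to 9.84 after UUO, with a median of 9.32. In KO kidneys it read 10.38 and 10.24 in the controls and 9.69, 9.53, 9.55, 9.44 and 9.47 after UUO. Every UUO kidney of either genotype lay below every control. The fit with limma gave -1.10 ± 0.18 (standard error), a 2.15-fold decrease, in WT (adjusted p = 0.00107) and -0.77 ± 0.19, a 1.71-fold decrease, in KO (adjusted p = 0.00689). The KO call was lost when KO control 3813 was left out (-0.70, adjusted p = 0.0884), and the WT call held under all 25 alternatives run.

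H2-Ab1, the I-A β chain, read 10.002 and 10.21 in the WT controls and 9.04 to 10.01 after UUO, with a median of 9.47. In KO kidneys it read 10.06 in both controls and 9.84, 9.72, 9.82, 9.49 and 9.57 after UUO. The WT groups met at a single kidney, 3819 of set 1, and the KO groups did not overlap. The change was -0.63 ± 0.18 in WT (adjusted p = 0.0242) and -0.37 ± 0.18 in KO (adjusted p = 0.19).

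H2-Aa, the I-A α chain, read 9.52 and 9.33 in the WT controls and 8.62 to 8.93 after UUO, with a median of 8.82, so that the WT groups did not overlap. In KO kidneys the controls read 9.73 and 9.18, and the UUO kidneys 8.76, 9.19, 9.16, 9.29 and 9.24, so that 3 of the 5 lay between the controls. The change was -0.63 ± 0.14 in WT (adjusted p = 0.00847) and -0.33 ± 0.15 in KO (adjusted p = 0.152). The KO value was -0.61 without KO control 3814 and -0.05 without KO control 3813, so the lone remaining control set its size.

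Cd74, the invariant chain, read 11.06 and 11.08 in the WT controls and 9.99 to 11.02 after UUO, with a median of 10.28. In KO kidneys it read 11.04 and 10.99 in the controls and 10.89, 10.85, 10.62, 10.43 and 10.45 after UUO. All UUO kidneys lay below the controls of their genotype, and those of set 1 read higher than those of set 2. The change was -0.69 ± 0.20 in WT (adjusted p = 0.03) and -0.36 ± 0.21 in KO (adjusted p = 0.276). With the UUO kidneys of set 1 alone it was -0.39 in WT (adjusted p = 0.247) and -0.14 in KO (adjusted p = 0.69), and with those of set 2 alone -0.92 (adjusted p = 6.9e-06) and -0.51 (adjusted p = 0.00076).

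The WT calls of Cd74, H2-Ab1 and H2-Aa were lost when either WT control was left out and with set 1 alone, where 1.04% of all genes were called. Without WT control 3811 the adjusted p was 0.169, 0.0905 and 0.135, and without WT control 3812 it was 0.192, 0.254 and 0.0524. With set 1 alone it was 0.247, 0.234 and 0.185. Cd74 also missed the threshold without WT UUO kidney 3892 (adjusted p = 0.0506). The direction was down in every alternative. For H2-Aa the mean of the WT UUO kidneys was 8.84 in set 1 and 8.77 in set 2.

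**Figure D1:**
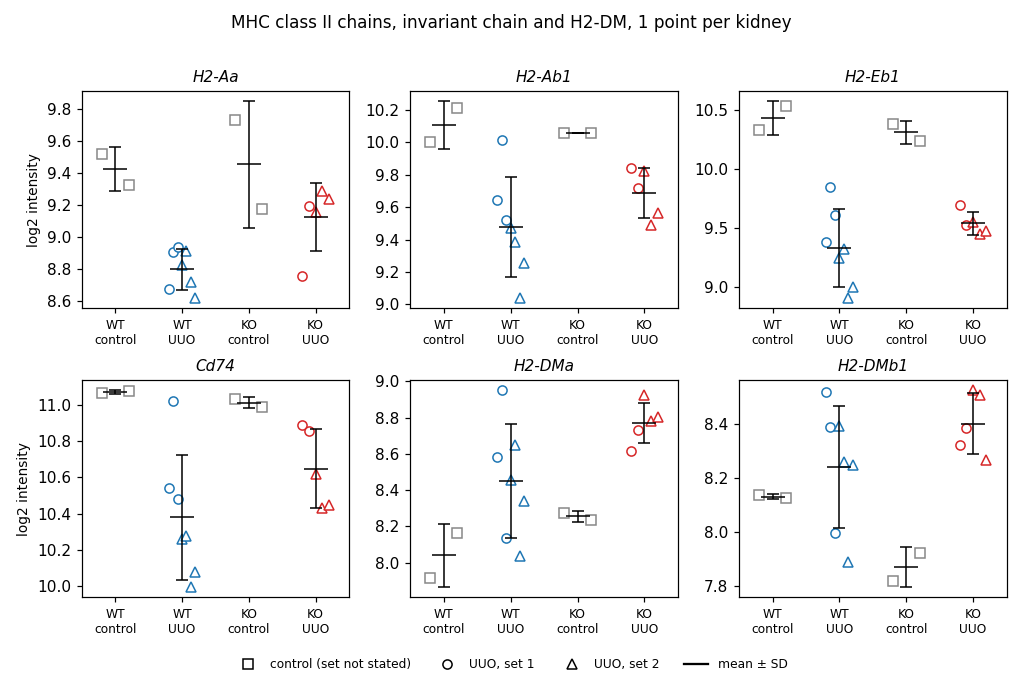
Levels (log2 intensity) of 3 class II chains, the invariant chain Cd74 and 2 chains of H2-DM, with 1 point per kidney, squares for controls, circles for UUO set 1, triangles for UUO set 2, and bars for mean ± SD. The 12 UUO kidneys lie below the 4 controls for H2-Eb1, whereas H2-DMa and H2-DMb1 lie above the KO controls in all 5 KO UUO kidneys.

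Apart from Cd74 in WT, no loading or control gene of class II passed the test for a fall. H2-DMa and H2-DMb1, which together form the peptide exchanger H2-DM, were higher after UUO in KO kidneys, where H2-DMb1 passed the test and H2-DMa did not. H2-DMb1 read 7.82 and 7.92 in the KO controls and 8.32, 8.38, 8.52, 8.51 and 8.27 after UUO, which is 0.53 ± 0.13 (adjusted p = 0.00924). Without KO control 3813 and with set 1 alone the value was 0.48 each time (adjusted p = 0.106 and 0.0837). In WT kidneys H2-DMb1 read 8.14 and 8.12 in the controls and 7.89 to 8.52 after UUO, on both sides of them, with a change of 0.11 ± 0.13 (adjusted p = 0.693).

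H2-DMa read 7.92 and 8.16 in the WT controls and 8.04 to 8.95 after UUO, and 8.28 and 8.23 in the KO controls and 8.62, 8.73, 8.92, 8.78 and 8.80 after UUO. Its changes were 0.41 ± 0.17 (adjusted p = 0.14) and 0.52 ± 0.18 (adjusted p = 0.0547). The KO value of H2-DMa passed in 9 of the 25 alternatives and the WT value in 2, with the unadjusted threshold among them. For KO, leaving out WT kidney 3820 was another of them. Ciita read 6.87 to 7.17 in WT UUO kidneys and 7.11 to 7.32 in KO UUO kidneys, close to the range of the deleted Il33, with changes of 0.04 (adjusted p = 0.8) and 0.19 (adjusted p = 0.0783). Ctss, the protease that trims the invariant chain, read 6.94 to 7.41 over the WT UUO kidneys and changed by 0.06 and 0.15, neither past the test. H2-Oa, H2-Ob and H2-DMb2 lay among the dimmer genes and had changes between -0.04 and 0.02 in either genotype.

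Of the 11 genes of class I peptide supply, 5 rose in WT kidneys (Calr, Psmb10, Psme2, Psmb8 and Tapbp) and 6 in KO kidneys (Psmb10, Tap2, Psme1, Psme2, Tapbp and Calr), and none fell. Over all genes 6.97% rose in WT and 10.6% in KO, and 9 of the 11 were among the brighter genes. Of the 9066 brighter genes, 1235 rose in WT and 1851 in KO, and 29.0% and 41.2% were called in either direction. The median change of the 11 was 0.29 in WT and 0.42 in KO, beside a median of -0.00076 and -0.00057 over all genes. The 4 class II chains had medians of -0.63 and -0.35.

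Psmb10, a catalytic subunit of the immunoproteasome, read 8.84 and 8.93 in the WT controls and 8.89 to 9.73 after UUO, with a median of 9.58. In KO kidneys it read 8.79 and 8.92 in the controls and 9.84, 9.75, 9.88, 9.83 and 9.56 after UUO. All UUO kidneys lay above their controls except WT kidney 3820, at 8.89. The increase was 0.59 ± 0.16 in WT, 1.501-fold (adjusted p = 0.0229), and 0.91 ± 0.17 in KO, 1.89-fold (adjusted p = 0.00108). Without kidney 3820 the WT increase was 0.68. The KO call held under all 25 alternatives, and the WT call was lost with set 1 alone and without either WT control (adjusted p = 0.308, 0.184 and 0.128).

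The other catalytic subunits moved less. Psmb8 read 7.04 and 6.90 in the WT controls and 7.14 to 7.40 after UUO, above both controls in 7 of 7 kidneys, with an increase of 0.29 ± 0.08 (adjusted p = 0.028). This call was lost without WT control 3811 (adjusted p = 0.0775) and without 3812 (adjusted p = 0.305), and with set 1 alone (adjusted p = 0.143) or set 2 alone (adjusted p = 0.0683). In KO kidneys the change of Psmb8 was 0.23 ± 0.09 (adjusted p = 0.0783). Psmb9 changed by 0.04 ± 0.14 in WT (0.12 without kidney 3820) and 0.16 ± 0.15 in KO, and its WT UUO kidneys spread from 7.42 in kidney 3820 to 8.27 in kidney 3819.

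Psme1 and Psme2 encode the α and β subunits of PA28. Psme2 read 8.40 and 8.41 in the WT controls and 8.77 to 8.96 after UUO, and 8.33 and 8.49 in the KO controls and 8.98, 8.67, 8.98, 8.71 and 9.05 after UUO, with no overlap in either genotype. It rose by 0.43 ± 0.09 in WT (adjusted p = 0.00451) and 0.47 ± 0.09 in KO (adjusted p = 0.00159). The WT call was lost with set 1 alone and without either WT control (adjusted p = 0.0869, 0.0604 and 0.0606), and the KO call with set 1 alone (adjusted p = 0.0514). Psme1 read 10.15 and 10.01 in the KO controls and 10.74, 10.69, 10.65, 10.68 and 10.45 after UUO, an increase of 0.56 ± 0.10 (adjusted p = 0.00123) that held under all 25 alternatives. In WT kidneys the change of Psme1 was 0.24 ± 0.10 (adjusted p = 0.14), and without WT kidney 3820 it was 0.28 (adjusted p = 0.0263).

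Tap2, a subunit of the peptide transporter, read 8.29 and 8.57 in the KO controls and 9.28, 9.33, 9.16, 9.13 and 8.70 after UUO. Its increase in KO was 0.69 ± 0.16, 1.62-fold (adjusted p = 0.00623), and without KO control 3813 it was 0.55 (adjusted p = 0.12). In WT kidneys it read 8.45 and 8.44 in the controls and 8.46 to 9.08 after UUO, a change of 0.41 ± 0.16 (adjusted p = 0.101) that was 0.48 without kidney 3820 (adjusted p = 0.0209). Its partner Tap1 was dim, read 6.88 to 7.16 after UUO, and showed no change past the test. Tapasin (Tapbp), which bridges TAP and the heavy chain, rose by 0.29 ± 0.09 in WT (adjusted p = 0.0427) and 0.43 ± 0.09 in KO (adjusted p = 0.00348). The WT call of Tapbp was lost in 12 of the 25 alternatives, with adjusted p up to 0.243 without WT control 3812, and the KO call without KO control 3813 (adjusted p = 0.0673).

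Calreticulin (Calr), a chaperone of the loading complex and of glycoproteins in general, read 8.81 and 8.80 in the WT controls and 9.17 to 9.56 after UUO. In KO kidneys it read 8.73 and 9.01 in the controls and 9.19, 9.12, 9.40, 9.28 and 9.45 after UUO. It rose by 0.59 ± 0.10 in WT (adjusted p = 0.00157), a call kept in all 25 alternatives, and by 0.42 ± 0.11 in KO (adjusted p = 0.0102), a call lost without KO control 3813 (0.27, adjusted p = 0.219) and with set 1 alone (0.29, adjusted p = 0.136). Pdia3, its oxidoreductase partner, changed by 0.00 in WT and -0.18 in KO, neither past the test.

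**Figure D2:**
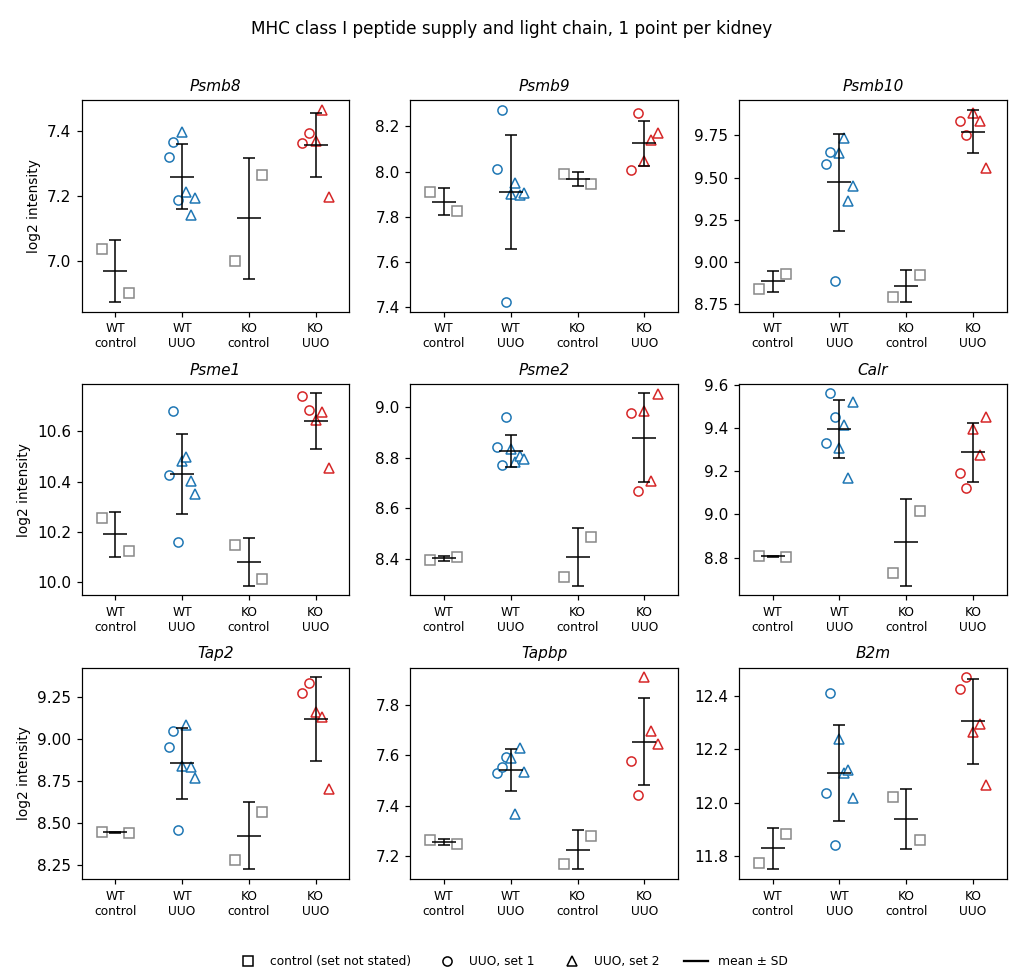
Levels (log2 intensity) of 8 genes of class I peptide supply and loading and of the light chain B2m, with 1 point per kidney, squares for controls, circles for UUO set 1, triangles for UUO set 2, and bars for mean ± SD. Psme2, Tapbp and Calr lie above the controls in all 7 WT and all 5 KO UUO kidneys, and the lowest WT UUO point of Psmb10, Psmb9, Psme1, Tap2 and B2m is kidney 3820.

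None of the chains that present these peptides passed the test for a rise. B2m, the light chain shared by all class I molecules, read 11.77 and 11.89 in the WT controls and 11.84 to 12.41 after UUO, and 12.02 and 11.86 in the KO controls and 12.43, 12.47, 12.27, 12.30 and 12.07 after UUO. Its change was 0.28 ± 0.12 in WT (adjusted p = 0.143) and 0.36 ± 0.12 in KO (adjusted p = 0.0503). In both genotypes the value passed with the UUO kidneys of set 2 alone (0.29, adjusted p = 0.018, and 0.27, adjusted p = 0.036). Without WT kidney 3820 the adjusted p of B2m was 0.045 in WT and 0.0255 in KO.

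H2-T23, a nonclassical heavy chain (Qa-1) read by inhibitory receptors of NK cells, read 9.83 and 9.88 in the WT controls and 9.30 to 9.63 after UUO, and 9.79 and 9.78 in the KO controls and 9.31, 9.47, 9.40, 9.54 and 9.23 after UUO. All UUO kidneys lay below all controls. It fell by 0.42 ± 0.08 in WT (adjusted p = 0.00305) and by 0.39 ± 0.09 in KO (adjusted p = 0.0034), with the WT call lost without WT control 3812 (adjusted p = 0.0633) and both calls lost with set 1 alone (adjusted p = 0.0995 and 0.052). H2-K1, the classical heavy chain, read 7.29 to 7.72 in WT UUO kidneys, against 7.56 and 7.61 in the controls, and its changes of -0.19 (adjusted p = 0.27) and -0.13 (adjusted p = 0.464) did not pass. Without kidney 3820, its highest value, the WT change of H2-K1 was -0.24 (adjusted p = 0.0332).

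Among the other heavy chains, H2-Q7 (Qa-2), H2-Q8, H2-Q1, H2-M3 and H2-Tw3 were brighter and had changes of -0.27 to 0.21, none past the test. The remaining 18 were dimmer genes. Of these, H2-M2 fell in WT by 0.21 ± 0.07 (adjusted p = 0.0407) and lost its call in 9 of 24 alternatives, with an adjusted p of 0.594 without WT control 3812, and the other 17 had changes between -0.06 and 0.15 in WT. Class I heavy chains are near copies of each other, and RefSeq lists H2-K1 as a synonym of several of them, so signal may be shared between rows. H2-Ke6, named for its place in the locus, encodes the steroid and fatty acid dehydrogenase Hsd17b8, and it fell by 0.28 ± 0.06 in WT (adjusted p = 0.0086) and 0.42 ± 0.07 in KO (adjusted p = 0.000355). The WT call of H2-Ke6 was lost with set 1 alone and without either WT control (adjusted p = 0.133, 0.103 and 0.0743).

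Over all 50 members, 5 rose and 7 fell in WT kidneys, where 6.97% of all genes rose and 8.22% fell. In KO kidneys 7 rose and 3 fell, where 10.6% of all genes rose and 11.2% fell. Among the 26 brighter members, 11 were called in WT and 10 in KO, and among all brighter genes 29.0% and 41.2% were called. The share of members called was thus 42.3% and 38.5%, the second near that background. The median change over all members was 0.01 in WT and 0.02 in KO. Without WT kidney 3820, 16 members were called in WT and 13 in KO, beside 19.7% and 23.7% of all genes. With the UUO kidneys of set 1 alone, 2 members were called in WT (H2-Eb1 and Calr) and 6 in KO, beside 1.04% and 12.5% of all genes, and with those of set 2 alone 16 in each (23.4% and 24.6%). Without WT control 3812 the WT count was 2 and without 3811 it was 4, and without KO control 3813 the KO count was 5.

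The response to UUO was not shown to differ between genotypes for any member. The interaction, the KO change minus the WT change, was called for 0 of the 50 members and 0% of all genes in limma, with a smallest adjusted p of 0.973 among members. At an unadjusted p under 0.05 it named 2 members, H2-DMb1 (0.42 ± 0.19) and Psme1 (0.32 ± 0.15), and 860 of all genes. For the class II chains the interaction was 0.33 ± 0.26 (H2-Eb1), 0.26 ± 0.25 (H2-Ab1) and 0.30 ± 0.21 (H2-Aa), so that neither equal responses nor a smaller fall in KO could be shown. In control kidneys, KO against WT was called for 0 members and 0% of all genes in limma. There 1 member, H2-Q8 (-0.31), had an unadjusted p under 0.05, as did 664 of all genes.

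**Figure D3:**
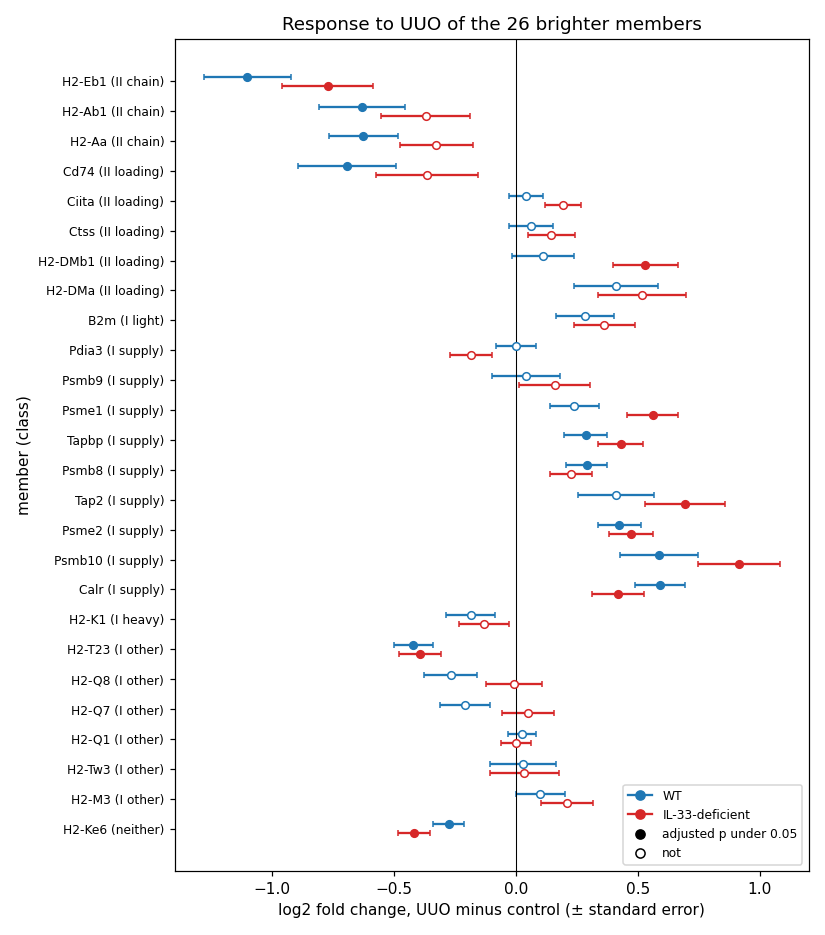
Change after UUO (log2 fold change ± standard error from limma) of the 26 brighter members in WT (blue) and KO (red) kidneys, ordered by class, with filled points for an adjusted p under 0.05. The class II chains and Cd74 lie left of 0 in both genotypes, from -1.10 for H2-Eb1 in WT to -0.33 for H2-Aa in KO, and the genes of class I supply lie at or right of 0 except Pdia3 in KO.

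The study's own question was how UUO kidneys differ without IL-33, and its threshold asked for a fold change over 1.3 together with p under 0.05 before adjustment and under 0.25 after it. No member passed it in the 12 UUO kidneys with limma, where 0.0110% of all genes did. The study applied it to fewer WT kidneys than the 7 used here and reported probes that passed in both directions, so its counts and these are unlike. At an unadjusted p under 0.05 there were 6 members, beside 10.3% of all genes. Of these, 5 were higher in KO, H2-Aa (0.33), H2-DMa (0.32), Psmb10 (0.30), Tap2 (0.26) and Psme1 (0.21), and H2-Q1 was lower (-0.10). By sign, 35 of 50 members were higher in KO, as were 9407 of all 18132 genes.

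H2-Aa had the smallest p of the members. Its KO mean was 9.13 and its WT mean 8.80, a difference of 0.33 ± 0.09 (adjusted p = 0.311, two-sided exact permutation p = 0.0114). The groups overlapped because KO kidney 3821 read 8.76, within the WT range. Over the 28 members tested this way, 3 had a p under 0.05 (H2-Aa, Psme1 and Psmb10, with exact permutation p of 0.0114, 0.0316 and 0.0354), and no member separated the genotypes over both sets.

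For the I-A chains, H2-Eb1, Cd74 and H2-DMa, the difference between genotypes was smaller in set 1 than in set 2. In set 2 alone, the KO kidneys exceeded WT by 0.46 for H2-Aa, 0.46 for H2-DMa, 0.37 for H2-Eb1, 0.35 for Cd74 and 0.34 for H2-Ab1. In set 1 alone, the same differences were 0.14, 0.12, -0.00, 0.19 and 0.05. Without WT kidney 3820, left out after the data were seen, they were 0.18, -0.09, -0.00, 0.09 and -0.05. H2-Aa and H2-DMa passed the study's threshold in set 2 (adjusted p = 0.106 and 0.218), as did 0.447% of all genes, and none did in set 1. Whether the sets differ was not tested.

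In set 2, Cd74 read 10.26, 10.28, 9.99 and 10.08 in WT and 10.62, 10.43 and 10.45 in KO. H2-Eb1 read 9.24, 9.32, 8.90 and 8.999 in WT and 9.55, 9.44 and 9.47 in KO. Every KO kidney of set 2 lay above every WT kidney of set 2 for 11 members, 5 of class II and 6 of class I, beside 4.49% of all genes. The class II members were Cd74, H2-Aa, H2-Ab1, H2-DMa and H2-Eb1, and the class I members Psmb9, Tapbp, Tap1, H2-Q7, H2-T10 and H2-M2. Of the last, Tap1, H2-T10 and H2-M2 lay among the dimmer genes, and H2-T10 is marked as a pseudogene. With 3 against 4 kidneys the exact permutation test has 35 splits and cannot go below 0.0286, which Cd74, H2-Aa, Psmb9 and H2-M2 reached.

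In set 1, Cd74 read 10.54, 11.02 and 10.48 in WT and 10.89 and 10.85 in KO, with WT kidney 3819 above both KO kidneys. The class I supply genes had no common order between the sets. The difference was larger in set 1 for Tap2 (0.48 against 0.12 in set 2), Psmb10 (0.42 against 0.21) and Psme1 (0.29 against 0.16), and smaller for Tapbp (-0.05 against 0.22) and Psme2 (-0.03 against 0.11). For the light chain B2m it was 0.35 against 0.08. With 2 against 3 kidneys no exact permutation p can go below 0.1, and WT kidney 3820 held the lowest value of Tap2, Psmb10, Psme1 and B2m. Without that kidney, a choice made after the data were seen, their set 1 differences were 0.30, 0.18, 0.16 and 0.22, and those of Psmb10 and Psme1 were no longer above set 2. With set as a block, Cd74 was 0.28 ± 0.09 (unadjusted p = 0.0102, adjusted p = 0.314), against 0.27 ± 0.16 (unadjusted p = 0.114) without it. Without WT kidney 3819, H2-DMa passed the study's threshold (0.40, adjusted p = 0.14), beside 1.7% of all genes. Without 3819 and 3820 together, a choice made after the data were seen, Cd74 (0.42) and H2-Aa (0.38) did, beside 1.27%.

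**Figure D4:**
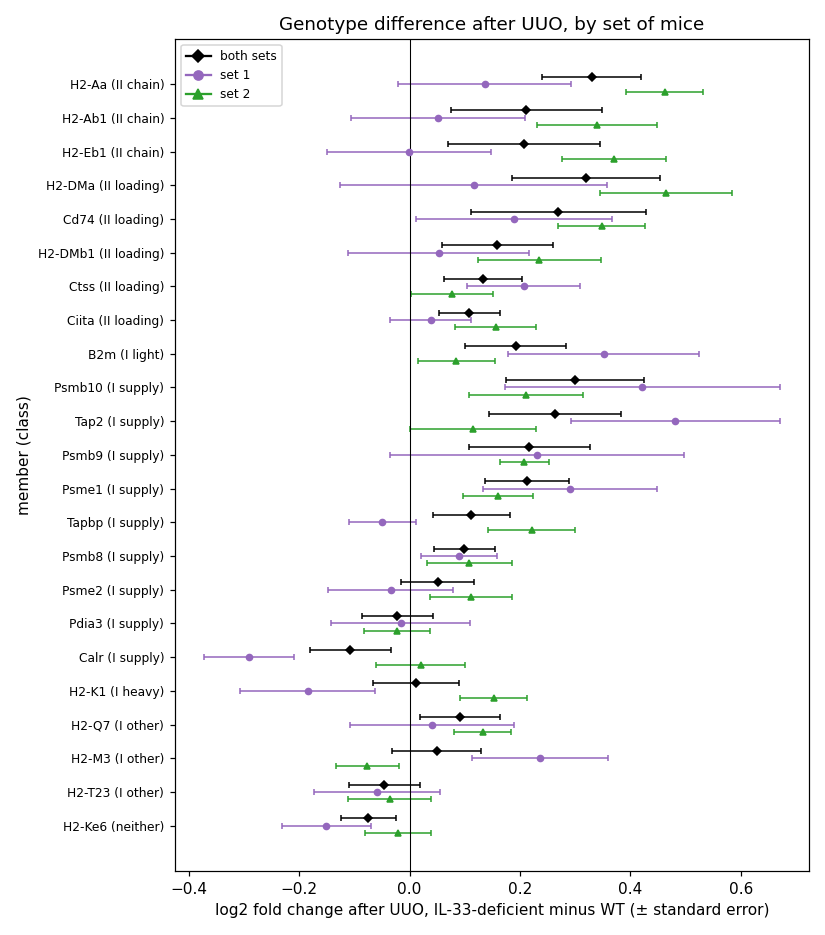
Difference between KO and WT kidneys after UUO (log2 fold change ± standard error from limma) for the described members that were brighter, over both sets (black), set 1 (purple) and set 2 (green). For the class II chains, Cd74 and H2-DMa the set 2 values of 0.34 to 0.46 lie right of the set 1 values of -0.00 to 0.19.

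Genes that work beside the members and are no members themselves were read as lists. Beside the counts of these lists and of the cell markers below, 15.2% of all genes were called in WT and 21.8% in KO. Of the brighter genes, 29.0% and 41.2% were called. In the class II pathway, 13 of 15 genes were measured, 10 of them brighter. Of the 13, 3 rose in WT (Lgmn 1.17, Ctsb 0.82 and Ctsd 0.41) and 2 fell (Ctsh -0.43 and Nfyc -0.49). In KO 4 rose (Lgmn 1.35, Ctsb 1.03, Ctsl 0.51 and Ifi30 0.29) and 2 fell (Nfyc -0.67 and Rfxap -0.26). Lgmn and the cathepsins are lysosomal proteases with wide roles outside presentation, Ifi30 is a lysosomal thiol reductase, Nfyc belongs to the factor that binds the Y box, and Rfxap to the complex that binds the X box.

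In the class I pathway, 13 of 14 genes were measured, 11 of them brighter. In WT 1 rose (Psmb6 0.26) and 2 fell (Ganab -0.23 and P4hb -0.20). In KO 5 rose, the constitutive proteasome subunits Psmb5 (0.69), Psmb6 (0.49) and Psmb7 (0.39), the translocon subunit Sec61b (0.38) and the editor Tapbpl (0.20), and 2 fell, Psme3 (-0.26) and Ganab (-0.26). Psmb5, Psmb6 and Psmb7 are the subunits that Psmb8, Psmb9 and Psmb10 replace. Nlrc5, the class I coactivator, was close to the range of the deleted Il33, with changes of 0.10 and 0.07 that did not pass.

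Of 12 genes of interferon signalling, 10 of them brighter, 4 rose in WT, among them Irf1 (0.52), Ifngr1 (0.46) and Irf9 (0.41). In KO 5 rose, Irf1 (0.79), Jak1 (0.78), Irf9 (0.60), Ifngr2 (0.54) and Ifngr1 (0.52), and none fell in either genotype. Over all genes 6.97% rose in WT and 10.6% in KO. Of the 9066 brighter genes, 1235 rose in WT and 1851 in KO, and 29.0% and 41.2% were called in either direction. Ifng itself read 6.80 to 6.89 in WT UUO kidneys, at the level of the deleted Il33. Of 6 class I-like genes outside the locus, Azgp1 fell in WT (-0.78), and in KO Azgp1 (-1.24) and the Fc and albumin receptor Fcgrt (-0.42) fell and Hfe, a regulator of iron uptake, rose (0.54). Of the costimulatory genes Cd80, Cd86 and Cd40, none passed in either genotype. The median changes of these lists in WT and KO were 0.06 and 0.21 (class II pathway), 0.11 and 0.20 (class I pathway), 0.17 and 0.23 (interferon signalling), -0.02 and -0.03 (class I-like) and -0.01 and 0.11 (costimulation).

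Macrophages are among the cells that carry class II. Of 7 macrophage markers, Cd68 (0.62) and C1qa (0.46) rose and Csf1r (-0.41) fell in WT, and in KO Cd68 (0.96), C1qa (0.71), C1qb (1.11) and C1qc (0.91) rose and Csf1r (-0.36) fell. Over all genes 15.2% were called in WT and 21.8% in KO, and over the brighter genes, to which 6 of the 7 belong, 29.0% and 41.2%. The summed intensity of the macrophage markers was 1603 to 1692 in WT controls, 1905 to 2952 in WT UUO kidneys, 1578 to 1604 in KO controls and 1982 to 3151 in KO UUO kidneys. The sum of the 4 class II chains went from 3162 to 3425 down to 1541 to 2546 in WT, and from 2968 to 3362 down to 2154 to 2342 in KO. The WT UUO kidney highest in both sums was 3819, and the part of macrophage content in the class II levels was not tested.

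The 3 leukocyte markers gave 1 that rose in WT (Coro1a 0.51) and 2 in KO (Coro1a 0.78 and Laptm5 0.93), with Ptprc, which encodes CD45, at the level of the deleted Il33. After UUO, Coro1a and Laptm5 were higher in KO than in WT by 0.37 and 0.43 and Cd68 by 0.39, at unadjusted p of 0.00841, 0.0124 and 0.0183 and adjusted p of 0.33, 0.354 and 0.386. Of the 7 macrophage markers, 3 had an unadjusted p under 0.05 there (Cd68, C1qa and C1qb), all higher in KO, beside 10.3% of all genes. Of the 4 fibroblast markers, 3 did, all higher in KO, and Acta2 (0.67, adjusted p = 0.233) passed the study's threshold. The summed intensity of the fibroblast markers was 1949 to 3218 in WT and 3634 to 3985 in KO UUO kidneys, with no overlap. In set 1 the fibroblast sums were 1949 to 3218 in WT and 3828 to 3985 in KO, and in set 2 they were 2334 to 2567 and 3634 to 3905. The leukocyte and macrophage sums of the genotypes overlapped in both sets, through WT kidney 3819 in set 1 and KO kidney 3899 in set 2. In set 1 the leukocyte sums were 1460 to 2644 in WT and 2521 to 2699 in KO, and the macrophage sums 1905 to 2952 and 2841 to 3151. In set 2 the leukocyte sums were 1575 to 1824 in WT and 2429, 2310 and 1817 in KO. The macrophage sums there were 1920 to 2033 in WT and 2496, 2670 and 1982 in KO. The class II chains, Cd74 and H2-DMa differed more between genotypes in set 2 than in set 1. Whether these markers and the class II levels move together, and the part of the markers in the class II levels, was not tested. The 6 dendritic cell markers were all dimmer genes, with a summed intensity of 692 to 709 in WT controls, 683 to 723 in WT UUO kidneys, 698 to 707 in KO controls and 705 to 718 in KO UUO kidneys, and none changed past the test, so dendritic cells could not be followed. The same held for the 3 B cell markers and 2 NK cell markers, and none of the 5 T cell markers passed. Of 4 neutrophil markers, S100a8 rose in WT (1.54) and S100a8 (2.58) and S100a9 (1.91) in KO.

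Tubule markers, by which the tissue can be known as kidney, read bright in the controls. Of 6, Slc12a1, Slc12a3 and Aqp2 fell in WT and Slc12a1, Slc34a1 and Aqp2 in KO, with Slc12a1 at -3.12 and -3.13. Their summed intensity was 38642 to 42573 in WT controls and 18869 to 39737 in WT UUO kidneys, the highest being kidney 3820, and 36130 to 41516 and 18502 to 21068 in KO. Of 4 fibroblast markers, 3 rose in each genotype (Col1a1, Acta2 and Pdgfrb), and of 5 endothelial markers Tek fell in KO (-0.35).

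**Figure D5:**
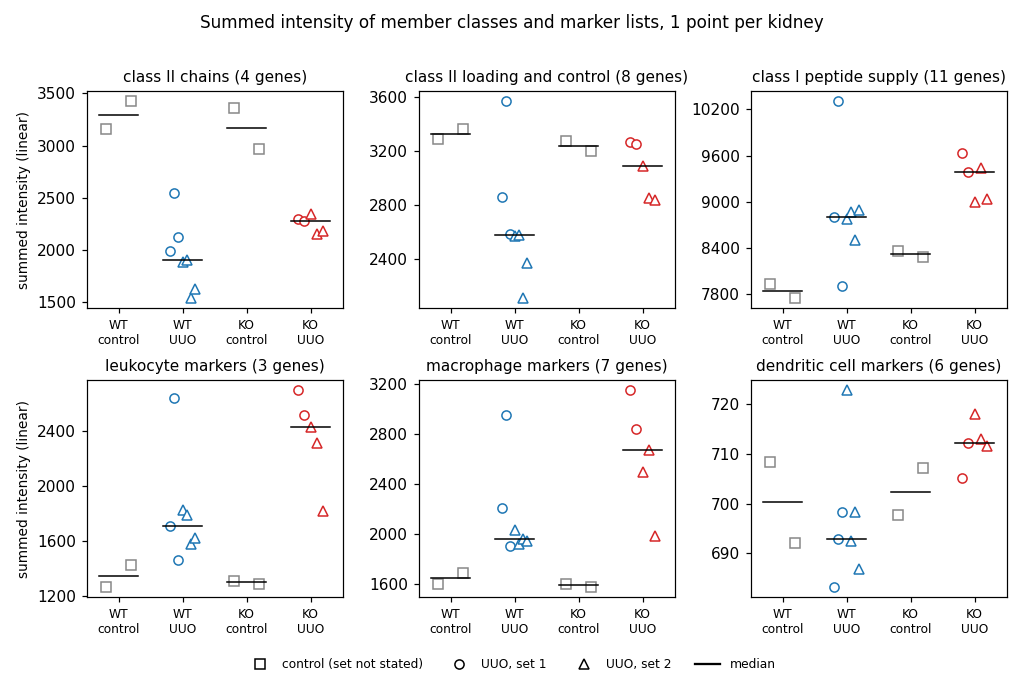
Summed intensity (linear, not from 0) of 3 member classes in the upper row and of leukocyte, macrophage and dendritic cell markers in the lower row, with 1 point per kidney, squares for controls, circles for UUO set 1, triangles for UUO set 2, and lines for medians. The class II chains fall below the controls in all 12 UUO kidneys, while the macrophage markers lie above the controls in all 12.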

How the data were processed

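Kidney RNA was labelled with an Illumina TotalPrep kit, hybridised to Illumina mouse bead arrays and read out with BeadStudio 2, per the submitters' processing notes. The deposited table holds linear intensity values for 16 arrays, 1 value per gene symbol for 18132 genes. How the authors corrected background and scaled these intensities before deposit is not given in the sources used here. Array medians lay between 132 and 133, and no 2 arrays were identical. An array has no read depth, so the number of kidneys limits the precision. The labels do not say that kidneys of a group came from separate litters, so p-values measure the spread between these kidneys.

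Intensities were quantile-normalized and taken to log2, then fitted with limma 3.58.1 in R 4.3.3 (lmFit and eBayes, Benjamini-Hochberg adjustment over all 18132 genes). KO against WT after UUO was fitted on the 12 UUO arrays and called at the study's threshold. The other comparisons came from a model of the 4 groups and were called at an adjusted p under 0.05. The scripts were tested on simulated data. Alternatives covered the normalization, variance trend, array weights, a filter to the brighter genes, the set of mice, the threshold, and each array left out. Exact permutation tests covered single members. Promoters were read from RefSeq on GRCm38.p6, and 49 members matched a RefSeq symbol and 1 a synonym.

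Every member may be named, and other genes were named where they passed a test or stand beside a result. The members and lists were chosen with earlier results of these data known, and some listed genes are not reported here.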

Additional observations from a re-analysis of the deposited data

Results flagged for a closer look

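In 6 of 100 groups of kidneys searched, 1 kidney stood apart from the rest, where chance gives about 1 in 20. H2-Aa read 8.76 in KO UUO kidney 3821, and 9.16 to 9.29 in the other 4. Pdia3 read 11.88 in KO UUO kidney 3897, below 12.09 to 12.11 in the others, and 12.35 in WT UUO kidney 3819, above 11.96 to 12.12. In WT UUO kidney 3820, H2-K1 read 7.72 (7.29 to 7.45 in the others) and Psme2 read 8.96 (8.77 to 8.84). Tapbp read 7.37 in WT UUO kidney 3893, below 7.53 to 7.63. The causes were not tested.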

How the results depend on the processing

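No direction of a called member turned under any alternative. The number of members called moved as follows. At an unadjusted p under 0.05 it was 20 for UUO in WT, 16 for UUO in KO, 6 for KO against WT after UUO, 2 for the difference in response and 1 for the controls. In the same order, 26%, 30.7%, 10.3%, 4.74% and 3.66% of all genes passed. With set 1 alone the number of members was 2 for UUO in WT and 6 for UUO in KO, beside 1.04% and 12.5% of all genes. With set 2 alone it was 16 for UUO in KO and 2 for KO against WT after UUO, beside 24.6% and 0.447%. The count for KO against WT after UUO was also 2 without WT kidneys 3819 and 3820 (chosen after seeing the data), beside 1.27%. Leaving out 1 kidney at a time gave 2 to 16 for UUO in WT, 5 to 13 for UUO in KO, 0 to 1 for KO against WT after UUO, and 0 to 0 for both other comparisons. The lowest counts came without a control, of which each genotype has 2, and the lone control left is then assumed to vary like the other groups. For single members, 3327 values kept their direction and side of the threshold, 65 gained a call, 55 lost a call and 28 uncalled values turned their sign and moved by more than their error. The scalings moved the median of all genes by under 0.02. Over all genes, the count for KO against WT after UUO at the study's threshold was 2 and moved with the setting. It was 309 without WT kidney 3819, 168 of the brighter genes alone and 127 with the 4 groups in one model. Without KO kidney 3899 it was 94, with array weights 80, with set as a block 1 and with set 1 alone 0. No paired analysis was possible because the kidneys carry unique numbers that no 2 groups share. Dim members, the unstated set of the controls and the lack of sham-operated kidneys limit these comparisons.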
